A study of Saccharomyces cerevisiae with 21 samples.

Results

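COX1 and COB are the 2 split protein genes of the yeast mitochondrial chromosome (chrM), and ribonucleotides built into their DNA were mapped to the base and strand by ribose-seq. Their members here are all table positions on chrM that end at 13818-26701 (COX1, Q0045, 12884 bp) or 36540-43647 (COB, Q0105, 7108 bp) in the sacCer2 build, on either strand. Both genes lie on the plus strand. With the rows of each position and strand put together, 24404 positions lay in COX1 and 13050 in COB, which makes 37454 of the 141579 chrM positions and of the 6633594 positions of the whole table. The same bounds stand in the RefSeq table of the R64 assembly, which places 6 intron-encoded genes inside COX1 (AI1, AI2, AI3, AI4, AI5_ALPHA and AI5_BETA) and 3 inside COB (BI2, BI3 and BI4). The limits of single exons and introns were not used here, so each gene was read from end to end, introns included.

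COX1 encodes subunit 1 of cytochrome c oxidase, the last enzyme of the respiratory chain, and COB encodes cytochrome b, the mitochondrially encoded subunit of the chain's bc1 complex. Several of their introns carry reading frames for maturases, which help the same introns to splice, or for endonucleases and reverse transcriptases that let introns move. Ribonucleotides enter DNA when a polymerase takes up a ribonucleoside triphosphate in place of the deoxy form. RNase H2 starts their removal from nuclear DNA, whereas those in yeast mitochondrial DNA are known to persist.

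The libraries came from the haploid strain BY4742, of mating type alpha, grown to stationary phase. The tested genotypes were rnh203-K46W (5 libraries), with a change in an accessory subunit of RNase H2, rnh201-G42S (3 libraries), with a change in the catalytic subunit, and rnh201-null (3 libraries), which lacks that subunit. Wild-type RNase H2 (WT) was measured in 6 libraries. Both point changes copy mutations of human Aicardi-Goutières syndrome and were made in the yeast genome with the delitto perfetto method. A label field gives K46W under the name rnh201, while titles and design text give rnh203, which is used here. The labels do not say whether libraries of a genotype came from separate cultures, so p-values measure the spread between libraries, which may be technical. Each genotype had 1 whole-genome DNA sample (4 samples, with no column of their own), which its libraries share.

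Values are the authors' normalized enrichment factor, a ratio of ribonucleotide reads to DNA depth, which in each library summed to 85779, the length of chrM in bases. An amount above 1 therefore means more than the chrM mean, and no library can be said to hold more ribonucleotides in chrM than another. Depth differed widely: chrM held a value at 564 positions in rnh201-null replicate 1, the shallowest library, and at 103746 in rnh203-K46W replicate 4. Within the 2 genes these libraries had 243 and 32773 positions. Over windows outside both genes the libraries were clustered by Spearman correlation into 2 sets of like profile, a number fixed beforehand. The mean correlation was 0.616 within a set and 0.201 between sets, and clustering on these values favours such a gap. Windows in the genes were not used for it. There the means were 0.58 and 0.26 in COX1, and 0.56 and 0.29 in COB. Set A held 10 libraries (rnh203-K46W 1, 2 and 4, rnh201-G42S 1 and 3, rnh201-null 1 and 2, WT 1, 3 and 6) and set B the other 7. The DNA had been cut with up to 3 sets of restriction enzymes, and the labels do not say which library received which. Whether the enzymes made these sets was not tested, and results are given by set where they differ.

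COX1 carried more ribonucleotides per base than the rest of chrM in 16 of 17 libraries. Its density, as the fold of the mean per base outside both genes, was 2.06, 1.18, 1.67, 2.60 and 3.98 in the rnh203-K46W libraries and 2.79, 2.18 and 2.49 in the rnh201-G42S libraries. In rnh201-null it was 2.31, 3.15 and 1.86, and in WT the lowest, median and highest folds were 0.935, 1.55 and 2.004. The single library below 1 was WT replicate 2, the shallowest WT library. Over the 17 libraries the mean log2 fold was 0.97 ± 0.54 (SD, n = 17), a 1.96-fold excess, which passed the two-sided sign-flip permutation test (p = 4e-05, adjusted p = 0.00016 over 4 tests). Because libraries of a genotype share 1 DNA sample, the 17 are not fully independent in this and the other sign-flip tests. Within a genotype the sign-flip p was 0.0625 in rnh203-K46W, 0.25 in rnh201-G42S, 0.25 in rnh201-null and 0.0625 in WT. Such small groups limit the test. COX1 spans 15.0% of chrM and held between 14.5% and 38.7% of the enrichment factor. The excess appeared in both sets, with a mean log2 fold of 1.06 ± 0.44 in set A (10 of 10 libraries above 0) and 0.84 ± 0.67 in set B (6 of 7).

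COB stood much nearer the chrM level. Its folds over the rest of chrM were 1.31, 1.08, 1.16, 1.81 and 2.18 in rnh203-K46W, 1.14, 1.39 and 1.51 in rnh201-G42S, and 1.31, 2.52 and 1.07 in rnh201-null. In WT the lowest, median and highest were 0.725, 0.795 and 1.34, and only 2 of 6 WT libraries lay above 1, against all 11 mutant libraries. The mean log2 fold over 17 libraries was 0.28 ± 0.51, or 1.22-fold, with 13 libraries above 0 (sign-flip permutation p = 0.0337, adjusted p = 0.0427). That call was lost in 11 of the 17 fits that left out 1 library, and with COX1 and COB kept in the denominator the value was 0.05 (adjusted p = 0.609). COB spans 8.29% of chrM and held between 5.33% and 14.4% of its enrichment factor.

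**Figure D1:**
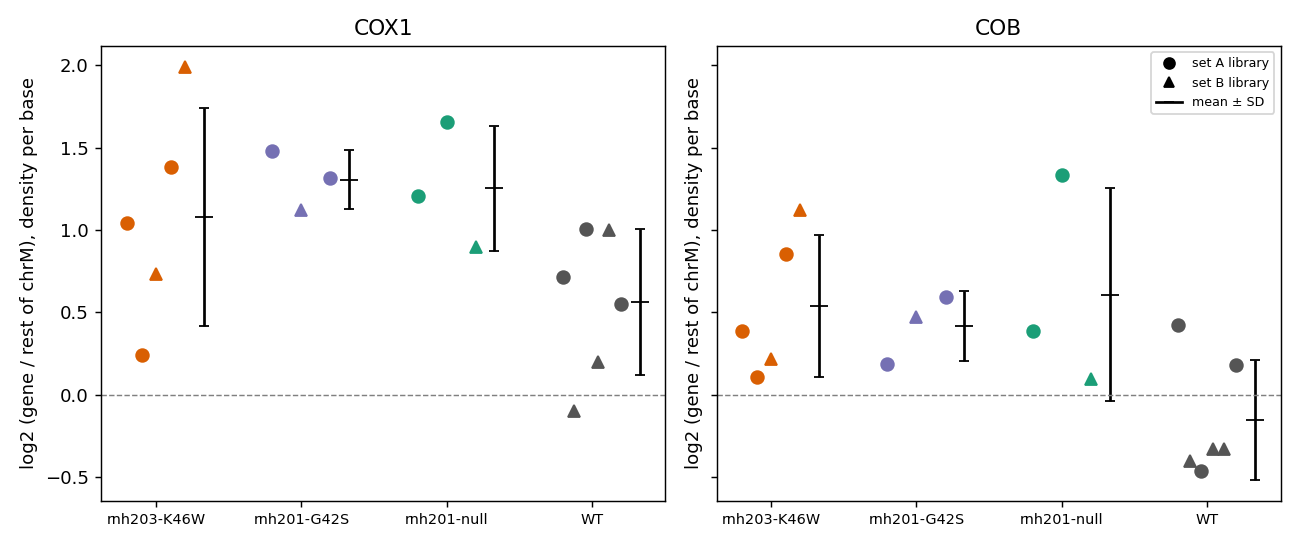
Ribonucleotide density per base of COX1 (left) and COB (right) over the rest of chrM, on a log2 scale, 1 point per library, by genotype. Circles are set A and triangles set B libraries, and black bars give mean ± SD. COX1 lies above 0 in 16 of 17 libraries, and the WT libraries of COB lie mostly below 0.

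The 2 genes differed from each other in every library. COX1 density exceeded COB density in 17 of 17 libraries, by a mean log2 difference of 0.68 ± 0.39 (1.61-fold, sign-flip permutation p = 4e-05, a test added after the values were seen). By genotype the difference was 0.54 ± 0.27 in rnh203-K46W (n = 5), 0.89 ± 0.35 in rnh201-G42S (n = 3), 0.65 ± 0.28 in rnh201-null (n = 3) and 0.72 ± 0.54 in WT (n = 6).

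The share of strand positions with a value was also higher in the genes, for COB in WT replicates 2 to 5 too, where its density was below the rest. Such counts are not divided by DNA depth, which by the estimate given below was higher in the genes. How far depth made this difference was not tested. In all 17 libraries a larger share of strand positions had a value in COX1, and also in COB, than outside the genes. The share in COX1 ranged over 46.1 to 84.7% in rnh203-K46W, 32.2 to 55.2% in rnh201-G42S, 0.687 to 24.1% in rnh201-null and 4.15 to 47.8% in WT. Outside the genes it was 24.3 to 53.9%, 11.8 to 32.6%, 0.244 to 8.32% and 2.60 to 32.5% in the same order of genotypes. With each position counted once, whatever its value, the mean log2 fold was 0.94 for COX1 and 0.63 for COB (adjusted sign-flip permutation p = 8e-05 for both, n = 17). Positions with a value in any library made up 94.7% of the strand positions of COX1, 91.8% of COB and 79.1% of the rest of chrM. Taken per base with a value in any library, the log2 fold was 0.71 for COX1 (adjusted p = 0.00032) and 0.07 for COB (adjusted p = 0.576).

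The DNA depth by which the authors divided was not measured here but estimated from the smallest values within 25 bases, and this estimate was higher in the genes. Where few positions have a value the estimate comes out lower, and such positions were sparser outside the genes. How much of the difference comes from this was not tested. Implied by the values, the median depth in COX1 was 1.57 times that outside the genes in rnh203-K46W, 1.46 times in rnh201-G42S, 1.48 times in rnh201-null and 1.60 times in WT. For COB these ratios lay between 1.54 and 1.68. With read numbers recovered through this estimate in place of enrichment factors, the mean log2 folds were larger, 1.32 for COX1 and 0.71 for COB. Between genotypes the depth ratio to WT differed little between gene and rest, by -0.12 to 0.05 on the log2 scale.

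The comparison of genotypes asked whether RNase H2 mutants place ribonucleotides in these genes differently from WT. All 6 mean differences of the mutants against WT were positive, and none passed after adjustment over the 24 tests made. With each position counted once, rnh203-K46W minus WT was -0.11 in COX1 and 0.0582 in COB. For COX1 the log2 density averaged 1.08 ± 0.66 in rnh203-K46W, 1.31 ± 0.18 in rnh201-G42S, 1.25 ± 0.38 in rnh201-null and 0.56 ± 0.44 in WT (SD). The 3 rnh201-G42S libraries lay above all 6 WT libraries, a log2 difference of 0.74 ± 0.21 (SE) with an exact permutation p of 0.0238, the smallest that 3 against 6 can give (adjusted p = 0.343). Against WT, rnh203-K46W differed by 0.51 ± 0.35 (exact permutation p = 0.139, adjusted p = 0.416) and rnh201-null by 0.69 ± 0.28 (exact permutation p = 0.0714, adjusted p = 0.343). Leaving out 1 library in turn gave 0.29 to 0.72 for rnh203-K46W, the lowest without its replicate 5.

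For COB the log2 density averaged 0.54 ± 0.43 in rnh203-K46W, 0.42 ± 0.21 in rnh201-G42S, 0.61 ± 0.65 in rnh201-null and -0.15 ± 0.36 in WT. The differences from WT were 0.69 ± 0.24 for rnh203-K46W (exact permutation p = 0.0303), 0.57 ± 0.19 for rnh201-G42S (exact permutation p = 0.0476) and 0.76 ± 0.40 for rnh201-null (exact permutation p = 0.119). Their adjusted p-values were 0.343, 0.343 and 0.408. Leaving out 1 library in turn gave 0.40 to 1.01 for rnh201-null, the lowest without its replicate 2. The 3 contrasts share the WT libraries. Groups overlapped in each of them, and 2 of 5 rnh203-K46W, 2 of 3 rnh201-G42S and 1 of 3 rnh201-null libraries lay above all WT libraries.

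Within the sets these differences kept their sign but not their size. For COX1, set A gave 0.13 and set B 0.99 for rnh203-K46W minus WT. For rnh201-G42S minus WT they gave 0.64 and 0.75, and for rnh201-null minus WT 0.67 and 0.53. In COB the same differences were 0.40 and 1.02, 0.34 and 0.82, and 0.81 and 0.45. A group held 1 to 3 libraries there, and the exact permutation test cannot go below 0.1 with 3 against 3. The library numbers in the titles form series 100, 200 and 300, and all 5 rnh203-K46W libraries are in series 300, which has no WT library, so series and genotype cannot be told apart for that contrast. Within series 200, rnh201-G42S minus WT was 0.61 in COX1 and 0.56 in COB (2 against 4 libraries), and within series 100 rnh201-null minus WT was 1.12 and 0.85 (2 against 2).

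Mutants did not separate from one another. In COX1 the log2 difference was -0.18 ± 0.37 (SE) for rnh203-K46W minus rnh201-null, 0.05 ± 0.24 for rnh201-G42S minus rnh201-null and -0.23 ± 0.31 for rnh203-K46W minus rnh201-G42S. In COB these were -0.07 ± 0.42, -0.19 ± 0.39 and 0.12 ± 0.23. All 6 had an adjusted exact permutation p of 0.964, and 3 against 3 libraries cannot go below 0.1. The errors leave room for differences of the size seen against WT.

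On COX1 the ribonucleotides leaned towards the plus strand, the strand that carries the gene's sense sequence, compared with the rest of chrM. Outside both genes the minus strand held more in every library, with plus over minus between 0.668 and 0.910. In COX1 plus exceeded minus in 12 of 17 libraries, and the log2 strand ratio minus that of the rest was above 0 in 15. It was 0.60, 0.56, 0.07, 0.33 and -0.05 in rnh203-K46W, 1.53, 1.36 and 0.57 in rnh201-G42S, and 0.13, 0.39 and 1.46 in rnh201-null. In WT the lowest, median and highest were -0.33, 1.02 and 1.27. The mean was 0.68 ± 0.56 (n = 17, sign-flip permutation p = 0.00022, adjusted p = 0.00044). With each position counted once, whatever its value, the lean was smaller, and single libraries lay between -0.0028 and 0.54. Set against the same strand of the rest, the plus strand of COX1 was 2.46-fold denser (log2 1.30 ± 0.54, 17 of 17 libraries) and the minus strand 1.53-fold denser (0.61 ± 0.69, 14 of 17).

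**Figure D2:**
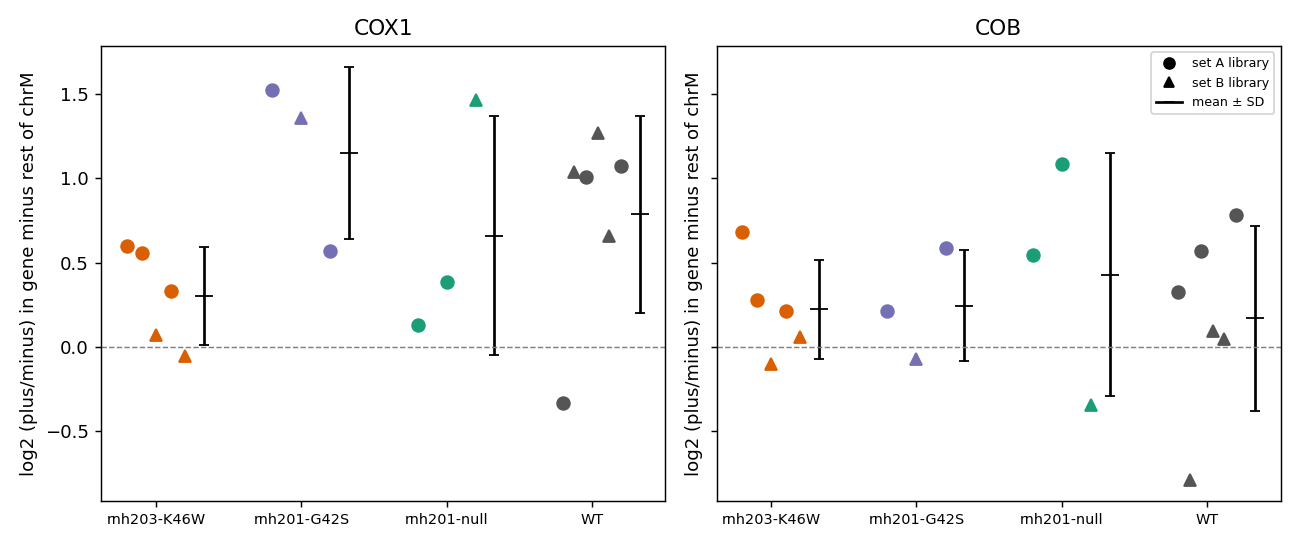
Log2 ratio of plus-strand to minus-strand ribonucleotides in COX1 (left) and COB (right) minus the same ratio outside both genes, 1 point per library, by genotype. Circles are set A and triangles set B libraries, and black bars give mean ± SD. COX1 lies above 0 in 15 of 17 libraries, and in COB all 10 set A libraries but only 3 of 7 set B libraries do.

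The lean of COB was not alike in the 2 sets, a difference that was not tested. Its log2 strand ratio minus the rest averaged 0.24 ± 0.45 over 17 libraries, with 13 above 0 (sign-flip permutation p = 0.0427, adjusted p = 0.0427), and the call was lost in 11 of 17 fits that left out 1 library. In set A it was 0.53 ± 0.28, above 0 in 10 of 10 libraries, and in set B it was -0.16 ± 0.32, above 0 in 3 of 7. The plain plus over minus ratio of COB exceeded 1 in 8 of 10 set A libraries and in 0 of 7 set B libraries. For COX1 the sets did not part in this way, with a mean of 0.58 ± 0.52 in set A and 0.83 ± 0.62 in set B.

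Genotypes did not pass a test in strand ratio either. The largest of the 12 differences was that of rnh203-K46W minus rnh201-G42S in COX1, at -0.85 ± 0.32 (SE), with means of 0.30 ± 0.29 and 1.15 ± 0.51 (SD). There 4 of 5 rnh203-K46W libraries lay below all 3 rnh201-G42S libraries (exact permutation p = 0.0714, adjusted p = 0.343). Against WT, with 0.79 ± 0.58, rnh203-K46W had a log2 difference of -0.48 ± 0.27 (exact permutation p = 0.117, adjusted p = 0.408). In COB all 6 strand differences were between -0.20 and 0.26, with adjusted exact permutation p of 0.964.

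Along the genes the signal was uneven, and the 2 genes ran opposite ways. The stretch of COX1 before its midpoint held more than that after it in 17 of 17 libraries, by 1.31-fold to 3.48-fold, with a median of 1.82. The fold was 1.40 to 1.99 in rnh203-K46W, 1.94 to 3.48 in rnh201-G42S, 1.36 to 2.52 in rnh201-null and 1.31 to 2.55 in WT. In COB the stretch before the midpoint held less in 17 of 17 libraries, with a ratio of first to second stretch between 0.158 and 0.974 and a median of 0.575. Set A libraries had ratios of 0.563 to 0.974 and set B libraries of 0.158 to 0.479, so the sets did not overlap. These stretches were compared after the profiles had been seen and carry no test.

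In windows of 500 bases on 1 strand, scaled to a chrM mean of 1, the median over libraries exceeded 1 in 14 of 25 plus-strand and 11 of 25 minus-strand windows of COX1. In COB it did so in 6 and 5 of 14. Outside the genes 21 and 23 of 133 windows on each strand did so. The 3 highest window medians of all chrM lay in COX1. These 3 were picked after their values were seen. First was a plus-strand window centred 433 bases from the start of the gene, with a median of 7.08 and above 1 in all 17 libraries. Its range was 2.82 to 12.2 in rnh203-K46W, 9.09 to 30.0 in rnh201-G42S, 2.07 to 8.29 in rnh201-null and 1.53 to 14.4 in WT. Next came both strands of the window centred at 2933 bases, with 5.40 on the minus strand (above 1 in 16 libraries) and 4.13 on the plus strand (above 1 in 15).

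On the minus strand COB was highest at its ends, while its highest plus-strand median was 1.51, at 5211 bases from the start. Its highest window was the minus strand at 211 bases from the start, with a median of 2.46 and above 1 in 14 of 17 libraries, and the minus-strand window at 6711 bases had 1.81. Between them lay a low stretch, with medians of 0.194 and 0.232 on the plus strand and 0.206 and 0.122 on the minus strand at 1711 and 2211 bases. Also between them, the minus-strand windows at 4211 and 4711 bases had 1.53 and 1.70, little below that at 6711 bases. The plus and minus profiles of a gene resembled each other, with a Spearman correlation of 0.549 over the 25 windows of COX1 and 0.670 over the 14 of COB. Both strands share libraries and DNA depth, and these are descriptions.

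**Figure D3:**
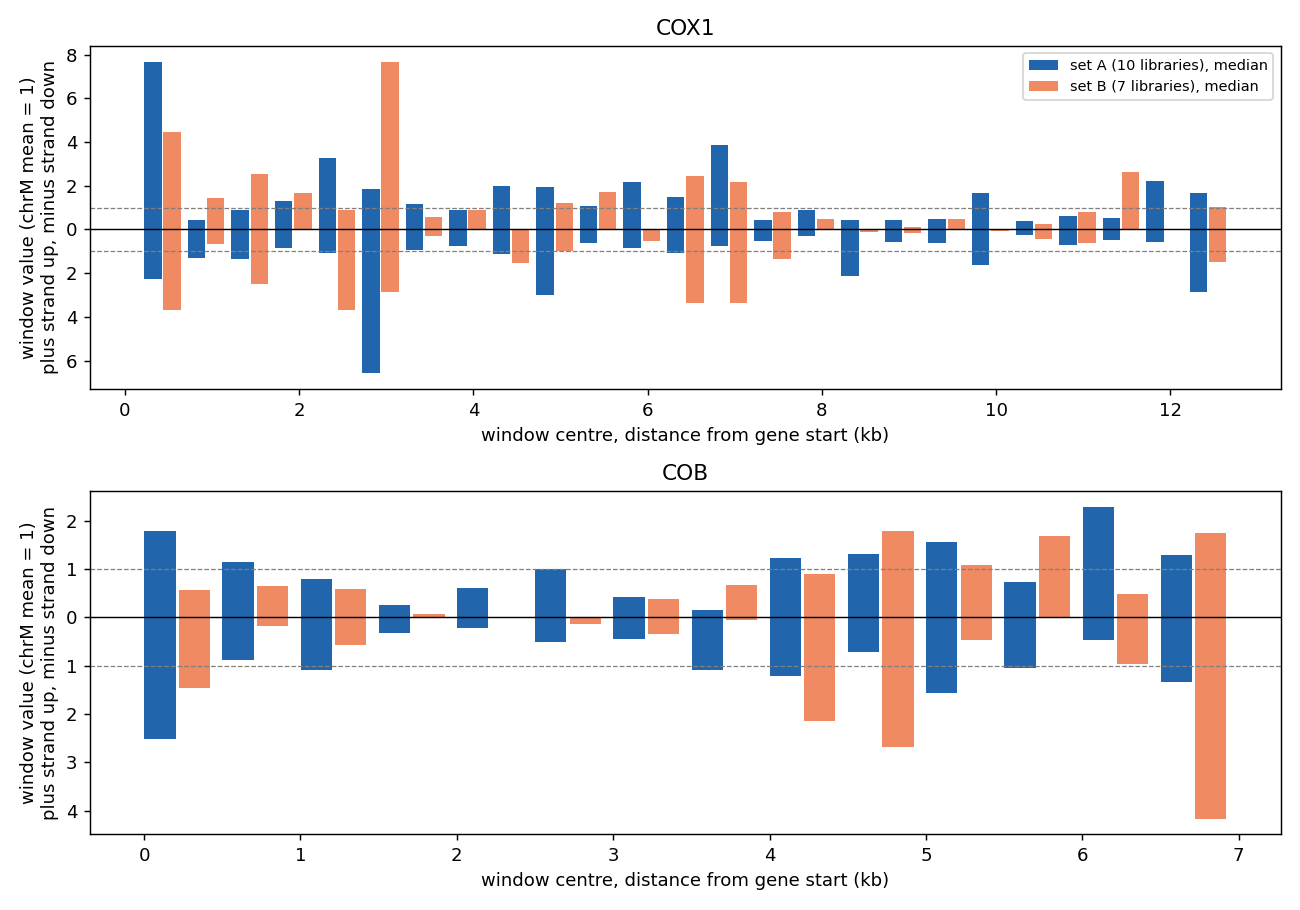
Median window value (chrM mean of 1, dashed lines) in 500-base windows along COX1 (top) and COB (bottom) by distance from the gene start in kb, plus strand drawn upward and minus strand downward. Blue bars are the 10 set A libraries and orange bars the 7 set B libraries. COX1 is highest in its first 3 kb, and several windows that set A fills are near 0 in set B.

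Gaps in set B set the 2 profiles apart. In 13 of 50 COX1 windows and 7 of 28 COB windows the set B median was under 0.1, and in none of the 78 gene windows was the set A median that low. Outside the genes 101 of 266 windows were under 0.1 in set B and 18 in set A, so such gaps were no more frequent in the genes (25.6% of windows, against 38.0% outside). In 10 COX1 and 4 COB windows the set A median was above 0.5 while set B was under 0.1. In COX1 the plus-strand window at 5933 bases had a set A median of 2.19 but a set B median of 0.0215, and that at 11933 bases had 2.22 and 0.015. Conversely the plus strand at 11433 bases had 0.509 in set A and 2.61 in set B.

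No window of the genes passed the main test between 2 genotypes. With limma on log2 of the window value plus 0.1, 0 of the 78 tested windows of COX1 and COB passed an adjusted p under 0.05 in any of the 6 contrasts, against 0 of 334 windows of chrM (0% called in each contrast). At an unadjusted p under 0.05, WT differed in the genes at 6 windows with rnh203-K46W, at 1 with rnh201-G42S and at 4 with rnh201-null, and on all chrM at 14, 9 and 35. Of the mutant pairs, rnh203-K46W and rnh201-null differed at 4 gene windows and 32 of chrM, rnh201-G42S and rnh201-null at 3 and 10, and rnh203-K46W and rnh201-G42S at 1 and 4. The median log2 difference from WT in the genes was 0.45 for rnh203-K46W, 0.25 for rnh201-G42S and 0.10 for rnh201-null, against 0.09, -0.37 and -0.69 outside. Empty windows enter these medians at the added 0.1. The rnh201-null libraries had a value at only 0.244 to 8.32% of strand positions outside the genes. The effect of depth on the medians was not tested. With library weights, rnh203-K46W against WT called 7 windows of the genes (6 higher and 1 lower), against 37 of 334 on chrM (11.1%), and the genes' share of 8.97% was below that background.

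The strongest positions held a share of the signal that varied widely between libraries. In each library, the 1% of COX1 strand positions with the highest values held 11.1 to 64.8% of the enrichment factor of COX1. The same share of COB strand positions held 12.3 to 61.8% of that of COB. These ranges leave aside rnh201-null replicate 1, whose few positions in each gene were all among them. The 1% is of all strand positions, with or without a value. Both lowest shares were those of rnh203-K46W replicate 4, with a value at 84.7% of COX1 strand positions. Both highest were those of WT replicate 2, with a value at 4.15%. How far depth made these shares was not tested. Named below are the 5 positions of each gene with the highest median over the 17 libraries. Values are folds over the chrM mean per strand base, and a library without a value counts as 0.

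The highest position of COX1 was chrM 14098 on the plus strand, 281 bases from the gene start, with a median of 77.6 and the second-highest median of all chrM (rank 2). It had 85.6, 30.7, 16.4, 24.9 and 32.3 in rnh203-K46W, 246, 95.6 and 86.6 in rnh201-G42S, and 0, 212 and 4.40 in rnh201-null. In WT the lowest, median and highest were 0, 81.9 and 106. Both zeros came from shallow libraries, rnh201-null replicate 1 and WT replicate 2. Each mutant overlapped WT, while all 3 rnh201-G42S libraries lay above all 5 rnh203-K46W libraries, the nearest pair being 86.6 and 85.6. Close by, 14194 on the plus strand (377 bases from the start) had a median of 45.9, with 101, 21.3, 13.5, 28.9 and 25.2 in rnh203-K46W, 383, 153 and 103 in rnh201-G42S, 0, 49.2 and 5.75 in rnh201-null, and 0, 47.8 and 208 as the lowest, median and highest in WT. Here too every rnh201-G42S library was above every rnh203-K46W library, by a thin margin (103 against 101), and also above every rnh201-null library. The WT range again overlapped all 3 mutants. At 14068 on the same strand the groups overlapped, with 33.7 in rnh201-G42S replicate 3 and 47.7 in rnh203-K46W replicate 5. The share of chrM positions at which genotypes part in this way was not counted, so no genotype difference is read from these positions.

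A pair of minus-strand positions lay within the window at 2933 bases. Position 16640 (2823 bases from the start) had a median of 52.9 and a value in 16 of 17 libraries, with 156, 37.1, 34.6, 33.7 and 48.6 in rnh203-K46W, 69.8, 157 and 97.4 in rnh201-G42S, 0, 193 and 83.6 in rnh201-null, and 5.48, 48.6 and 121 as the lowest, median and highest in WT. Position 16703 (2886 bases) had a median of 51.8, and its ranges were 20.4 to 148 in rnh203-K46W, 56.2 to 108 in rnh201-G42S, 0 to 422 in rnh201-null and 0 to 88.3 in WT. For 16640 the set medians were alike, 53.5 in set A and 52.9 in set B.

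The second-ranked position of COX1, 26174 on the minus strand (12357 bases from the start), differed by set. Its median was 68.9 over all libraries, 86.4 in set A (range 23.3 to 373) and 0.434 in set B. Within set B 1 library, WT replicate 5, had 76.2, and the other 6 had at most 1.90. In rnh203-K46W it had 92.8, 38.8 and 23.3 in the set A libraries, against 0.425 and 0.461 in the set B libraries. Just below the fifth-ranked position of COX1 stood 14068 on the plus strand, with a median of 38.2.

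COB had lower peaks. Its highest position, 42896 on the plus strand (6357 bases from the start), had a median of 32.9 and ranked 28 on chrM. It had 59.7, 50.8, 21.2, 20.4 and 20.2 in rnh203-K46W, 60.2, 14.4 and 41.6 in rnh201-G42S, 0, 187 and 0 in rnh201-null, and 11.3, 52.1 and 119 as the lowest, median and highest in WT. Next came 36561 and 36576 on the minus strand, 22 and 37 bases from the start, with medians of 26.6 and 23.8. The other 2 were 41355 on the minus strand (4816 bases, median 22.5) and 41437 on the plus strand (4898 bases, median 21.6). At 41355 set B was higher, with a median of 41.1, against 15.3 in set A, and rnh201-G42S replicate 2 reached 375.

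**Figure D4:**
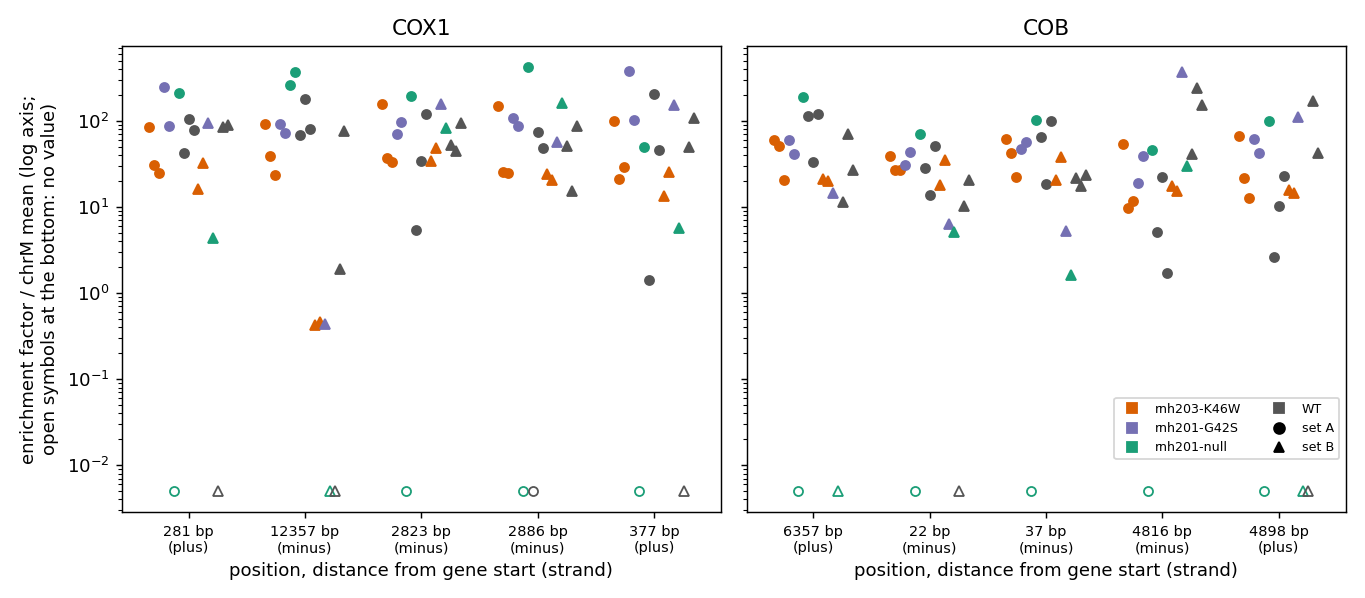
Enrichment factor over the chrM mean (log axis) at the 5 positions of COX1 (left) and of COB (right) with the highest medians, 1 point per library, labelled by distance from the gene start and strand. Colours give the genotype, circles set A and triangles set B, and open symbols at the bottom mark libraries with no value. The COX1 position at 12357 bp is near or below 2 in 6 of 7 set B libraries.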

How the data were processed

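Ribose-seq libraries were trimmed with cutadapt and aligned to sacCer2 with Ribose-Map, per the labels and the submitters' processing notes. The authors deposited 1 table of normalized enrichment factors, a ratio per position and strand. How they normalized it is not given in the sources used here. In every library the ratio summed to the length of chrM, and rows of the table held 1 read number, checked at 5186 coordinates. Rows were merged by position and strand. A missing value counted as 0. All 17 columns had a sample (0 without one).

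Each gene gave 1 density and 1 strand ratio per library. Genotypes were compared by two-sided exact permutation tests (24, adjusted by Benjamini-Hochberg) and genes with the rest by sign-flip permutation tests (4, 100000 resamples where enumeration was not complete) in Python 3.11.15 with scipy 1.17.1. Windows of 500 bases with a mean of at least 0.1 were tested with limma 3.58.1 in R 4.3.3, with eBayes, trend and Benjamini-Hochberg adjustment at 0.05, after a test on simulated data. Named positions were the 5 per gene with the highest median over libraries, and at most 10 windows past the threshold were to be named. Planned tests of introns against exons and of base composition were not run, because no sacCer2 annotation or sequence was used here. The members and lists were chosen with earlier results of these data known. The closing section gives the alternatives.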

Additional observations from a re-analysis of the deposited data

How the results depend on the processing

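The density excess of COX1 (log2 0.97) kept its call in all 24 alternatives tried, 17 of them leaving out 1 library, with values of 0.71 (per base with a value) to 1.83 (median of 100-bp bins, which left out rnh201-null replicate 1). Its strand ratio kept its call in all 21, and COX1 stayed above COB in all 24. COB lost its density call per base with a value in any library (0.0703), with the denominator over all of chrM (0.0468) and in libraries of at least 5000 positions (0.28). Leaving out 1 library gave 0.22 to 0.33. Its strand ratio lost the call with each position counted once (0.13) and in libraries of at least 5000 positions (0.23), and leaving out 1 library gave 0.19 to 0.31. The cause was not tested.

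No difference between genotypes passed in the main tests, and the following changed sign, with log2 values and the cause not tested. With each position counted once, COX1 density gave -0.11 for rnh203-K46W minus WT and -0.20 for rnh201-G42S minus rnh201-null. COB density gave -0.25 for rnh203-K46W minus rnh201-G42S. COX1 strand ratio gave -0.0422 for rnh201-G42S minus WT, 0.0771 for rnh201-null minus WT and -0.12 for rnh201-G42S minus rnh201-null. Without the top 1% of positions, COB density of rnh203-K46W minus rnh201-G42S was -0.0348 and COX1 strand ratio of rnh201-null minus WT was 0.0064. COX1 density of rnh201-G42S minus rnh201-null was -0.0136 with recovered reads and -0.68 with medians of bins, which also gave -0.48 for COB density of rnh203-K46W minus rnh201-G42S. In libraries of at least 5000 positions COX1 strand ratio of rnh201-null minus WT was 0.14.

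Within series 200, COB strand ratio of rnh201-G42S minus WT was -0.30. Within series 300, rnh203-K46W minus rnh201-null was 0.18 in COX1 density, 0.44 in COB density and 0.57 in COB strand ratio. There rnh201-G42S minus rnh201-null was 0.50 in COB density, -0.90 in COX1 strand ratio and 0.93 in COB strand ratio, and rnh203-K46W minus rnh201-G42S was -0.0582 in COB density. Within set A, COX1 density of rnh201-G42S minus rnh201-null was -0.032 and COX1 strand ratio of rnh203-K46W minus rnh201-null 0.24. COB strand ratio there was -0.17 for rnh203-K46W minus WT and -0.16 for rnh201-G42S minus WT. Within set B, rnh203-K46W minus rnh201-null was 0.46 in COX1 density, 0.57 in COB density and 0.32 in COB strand ratio. There rnh203-K46W minus rnh201-G42S was 0.24 in COX1 density and 0.0479 in COB strand ratio, and rnh201-null minus WT was 0.48 in COX1 strand ratio and -0.12 in COB strand ratio. Also within set B, rnh201-G42S minus rnh201-null was 0.37 in COB density, -0.11 in COX1 strand ratio and 0.27 in COB strand ratio.

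Leaving out 1 library in turn turned the sign of these differences. In density, rnh203-K46W minus rnh201-null ranged over -0.40 to 0.0337 in COX1 and -0.32 to 0.30 in COB, and rnh201-G42S minus rnh201-null over -0.12 to 0.25 in COX1 and -0.44 to 0.17 in COB. COB density of rnh203-K46W minus rnh201-G42S ranged over -0.0247 to 0.23. In COX1 strand ratio, rnh203-K46W minus rnh201-null ranged over -0.62 to 0.043 and rnh201-null minus WT over -0.53 to 0.14. In COB strand ratio the ranges were -0.14 to 0.18 for rnh203-K46W minus WT, -0.12 to 0.23 for rnh201-G42S minus WT and -0.071 to 0.64 for rnh201-null minus WT. Between mutants they were -0.59 to 0.12 for rnh203-K46W minus rnh201-null, -0.57 to 0.14 for rnh201-G42S minus rnh201-null and -0.18 to 0.15 for rnh203-K46W minus rnh201-G42S.

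Called windows of the genes numbered 0 in all alternatives except library weights, with 7 for rnh203-K46W against WT. No paired analysis was possible because replicate numbers were given in accession order. Groups of 3 limit the exact tests, and 1 library rests on 564 positions. The deposited values do not show how duplicate reads were handled.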

Other observations

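Positions that recurred among the strongest were spread unequally between the 2 genes. In each of the 16 libraries with at least 5000 chrM positions the top 1% held 1715 strand positions. This is 1% of all strand positions of chrM, and so a larger part of the values in a shallow library. WT replicate 2 had a value at 5025 positions and rnh203-K46W replicate 4 at 103746. No such top position was shared by all 16 libraries, in the genes or outside. In all 9 such set A libraries 10 COX1 positions (8 on the plus strand), 1 COB position and 8 positions elsewhere on chrM recurred. In all 7 set B libraries the numbers were 19 in COX1 (16 on the plus strand), 0 in COB and 67 elsewhere, of which 53 lay on the minus strand. The regions differ in length. Per 1000 strand bases, set A had 0.388 in COX1, 0.0703 in COB and 0.0608 elsewhere. Set B had 0.737, 0 and 0.509. By genotype, 19 positions of COX1, 8 of COB and 34 elsewhere recurred in the 5 rnh203-K46W libraries, and 63, 6 and 55 in the 3 rnh201-G42S libraries. In the 2 rnh201-null libraries the counts were 48, 15 and 91, and in the 6 WT libraries 2, 0 and 5. Per 1000 strand bases, in the same order of regions, rnh203-K46W had 0.737, 0.563 and 0.258, and rnh201-G42S 2.445, 0.422 and 0.418. By the same measure rnh201-null had 1.863, 1.055 and 0.692, and WT 0.0776, 0 and 0.038. Genotypes differ in their number of libraries, in depth and in how their libraries fall into the sets. The counts and rates are therefore not comparable between genotypes, and no test was made.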
